A study of Homo sapiens with 36 samples.

Results

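The 4 genes ARNTL, ARNTL2, CLOCK and NPAS2 encode the DNA-binding activators of the circadian clock. They were taken by symbol from the 54583 gene rows of each of 3 count tables, and all 4 passed the filter on low counts in every table. The tables hold polyA RNA-seq of MDA-MB-231, a human triple-negative breast cancer line, in 36 bulk libraries. Cells had received SHP1705, a stabilizer of the clock repressor cryptochrome, a blocker of the proteasome, or both. Each table is 1 set of 12 libraries, with 3 libraries in each of 4 groups. In the MG132 set the groups were the combination of SHP1705 at 10 µM with MG132 at 100 nM, MG132 alone, SHP1705 alone and DMSO, all for 8 h. In 2 carfilzomib sets, for 8 h and for 24 h, carfilzomib at 10 nM took the place of MG132. All groups share the line, a medium with fetal bovine serum and the DMSO in which drugs were dissolved. MG132 is a reversible and carfilzomib an irreversible proteasome blocker, and their doses differ, and no test compares them. All libraries come from 1 cell line. The design text mentions 3 independent experiments but leaves unsaid if it means replicates or sets. P-values therefore speak only of library-to-library spread, part of which may be technical.

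In the clock, BMAL1 (from ARNTL) or its paralogue BMAL2 (from ARNTL2) pairs with CLOCK or its paralogue NPAS2, and the pair binds E-box elements in DNA. Among the genes it switches on are the period (PER) and cryptochrome (CRY) genes, whose proteins return to the nucleus and block the pair. It also switches on NR1D1 and NR1D2, the REV-ERB receptors, which repress ARNTL through ROR elements (RORE), where the ROR receptors activate instead. ARNTL is therefore both a driver of the loop and, through REV-ERB, its target.

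Promoter sequences of the 2 genes with a match are shown because they hold the letters of elements through which this loop acts. They come from RefSeq on GRCh38.p14, 5′ to 3′ on the strand of the gene. All 4 genes matched by symbol, ARNTL and CLOCK with 2 start sites each, in windows of 250 bases before to 50 after a start. Capitals mark matches to an RORE or to the E-box variant CACGTT. The first line is chr11:13277540-13277799 on the plus strand, the second chr11:13277807-13277836 on the plus strand and the third chr4:55546104-55546158 on the minus strand.
ARNTL before and at its start: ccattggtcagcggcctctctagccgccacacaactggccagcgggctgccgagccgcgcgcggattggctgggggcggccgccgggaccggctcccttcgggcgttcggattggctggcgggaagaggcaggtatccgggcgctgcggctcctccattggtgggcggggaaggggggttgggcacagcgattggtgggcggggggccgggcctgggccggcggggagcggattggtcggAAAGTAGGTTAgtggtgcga
ARNTL after its start: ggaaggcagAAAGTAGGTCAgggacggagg
CLOCK before its second start: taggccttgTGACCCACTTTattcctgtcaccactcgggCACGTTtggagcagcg

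ARNTL had an RORE from -10 to 1 and another from 27 to 37, counted from the start at 13277790, and these do not overlap. Of 35116 promoter windows 0.547% held an RORE on either strand, and 0.00285%, which is 1 window, held 2 or more, that of ARNTL. The RORE form searched was widened to take the first ARNTL match, with that sequence known, so its rarity describes the form and is no test. CLOCK held an RORE on the other strand from -217 to -207 and a CACGTT from -187 to -182 of its start at 55545932. CACGTT was present in 5.34% and the E-box CACGTG in 7.26% of the windows, and no member window held CACGTG. None of these elements was found in the windows of ARNTL2 and NPAS2 or in the other windows of ARNTL and CLOCK. In GENCODE 29 on GRCh38, ARNTL (ENSG00000133794.17) spans chromosome 11 from 13276652 to 13387266, and ARNTL2 (ENSG00000029153.14) spans chromosome 12 from 27332854 to 27425289, both on the plus strand. CLOCK (ENSG00000134852.14) spans chromosome 4 from 55427903 to 55547138 on the minus strand, and NPAS2 (ENSG00000170485.16) spans chromosome 2 from 100820152 to 100996829 on the plus strand.

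In the MG132 set 34191200 to 39251600 counts were recorded per library. Those treated with or beside carfilzomib for 8 h held 17781000 to 27670800, and for 24 h, 18864700 to 34008400. Levels below are CPM, counts divided by a library size that edgeR's trimmed mean of M-values (TMM) had scaled. In bulk libraries, fewer cells with a gene on and less RNA of it per cell cannot be told apart. VIM, CD44, EGFR, MSN and AXL, which this line expresses, were detected in every group of all sets. Of 5 genes held to be low in it, ESR1 and PGR averaged at most 0.169 CPM and CDH1 at most 1.92 CPM in the groups of the MG132 set and of the carfilzomib set at 24 h. The other 2 were not near 0. ERBB2 averaged 38.4 to 63.3 CPM in the MG132 set and 82.0 to 92.0 CPM at 24 h. EPCAM averaged 22.9 to 24.9 CPM and 14.7 to 16.5 CPM. In DMSO of the MG132 set the luminal genes KRT8, KRT18 and KRT19 averaged 1181, 479 and 513 CPM, GATA3 7.20 and FOXA1 0.0361. Of 5 liver genes there, SERPINA1 averaged 35.9 CPM and the others at most 0.188, and 6 blood markers summed to 1.60 to 2.60 CPM. In the carfilzomib set at 8 h, the clock gene PER3 split the 3 libraries of every label, and the heat shock gene HSPA1A split those labelled combination and SHP1705, so that set is given library by library and read as "labelled". In the MG132 set, RNA of POSTN, a gene of fibroblasts and bone, stood at 98.3, 222 and 242 CPM in the combination, at 33.6, 0.161 and 173 with MG132, at 0.267, 28.2 and 29.4 with SHP1705, and at 0.255, 0.110 and 0.111 in DMSO. The 9 fibroblast markers, POSTN included, summed to 119.85 to 266.852 CPM in the combination, 17.5 to 193.0 with MG132, 16.6 to 52.1 with SHP1705 and 17.2 to 17.9 in DMSO. None of the other 8 differed as far as POSTN between the combination and DMSO. COL1A1 averaged 10.1 CPM in the combination and 5.18 in DMSO, PDGFRB 3.74 and 3.13, and COL3A1 0.679 and 0.268. LUM averaged 1.32 and 1.09 CPM and COL1A2 7.33 and 7.57. FAP averaged 0.159 and 0.0822 CPM, DCN 0.111 and 0.0531, and THY1 0.0522 and 0.0453. CDKN2A and CDH2 were also higher, with means of 5.83 and 12.98 CPM in the combination and 0.0177 and 1.254 CPM in DMSO. MG132 replicate 3, with 173 CPM of POSTN, held 9.16 CPM of ARNTL, 84.7 of ARNTL2, 62.6 of CLOCK and 59.9 of NPAS2. MG132 replicate 1, with 33.6 CPM of POSTN, held 9.63, 87.7, 66.1 and 63.5 CPM of these genes. MG132 replicate 2, with 0.161 CPM of POSTN, held 8.70, 81.5, 68.7 and 63.8 CPM. Any relation of these levels to POSTN was not tested.

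**Figure D1:**
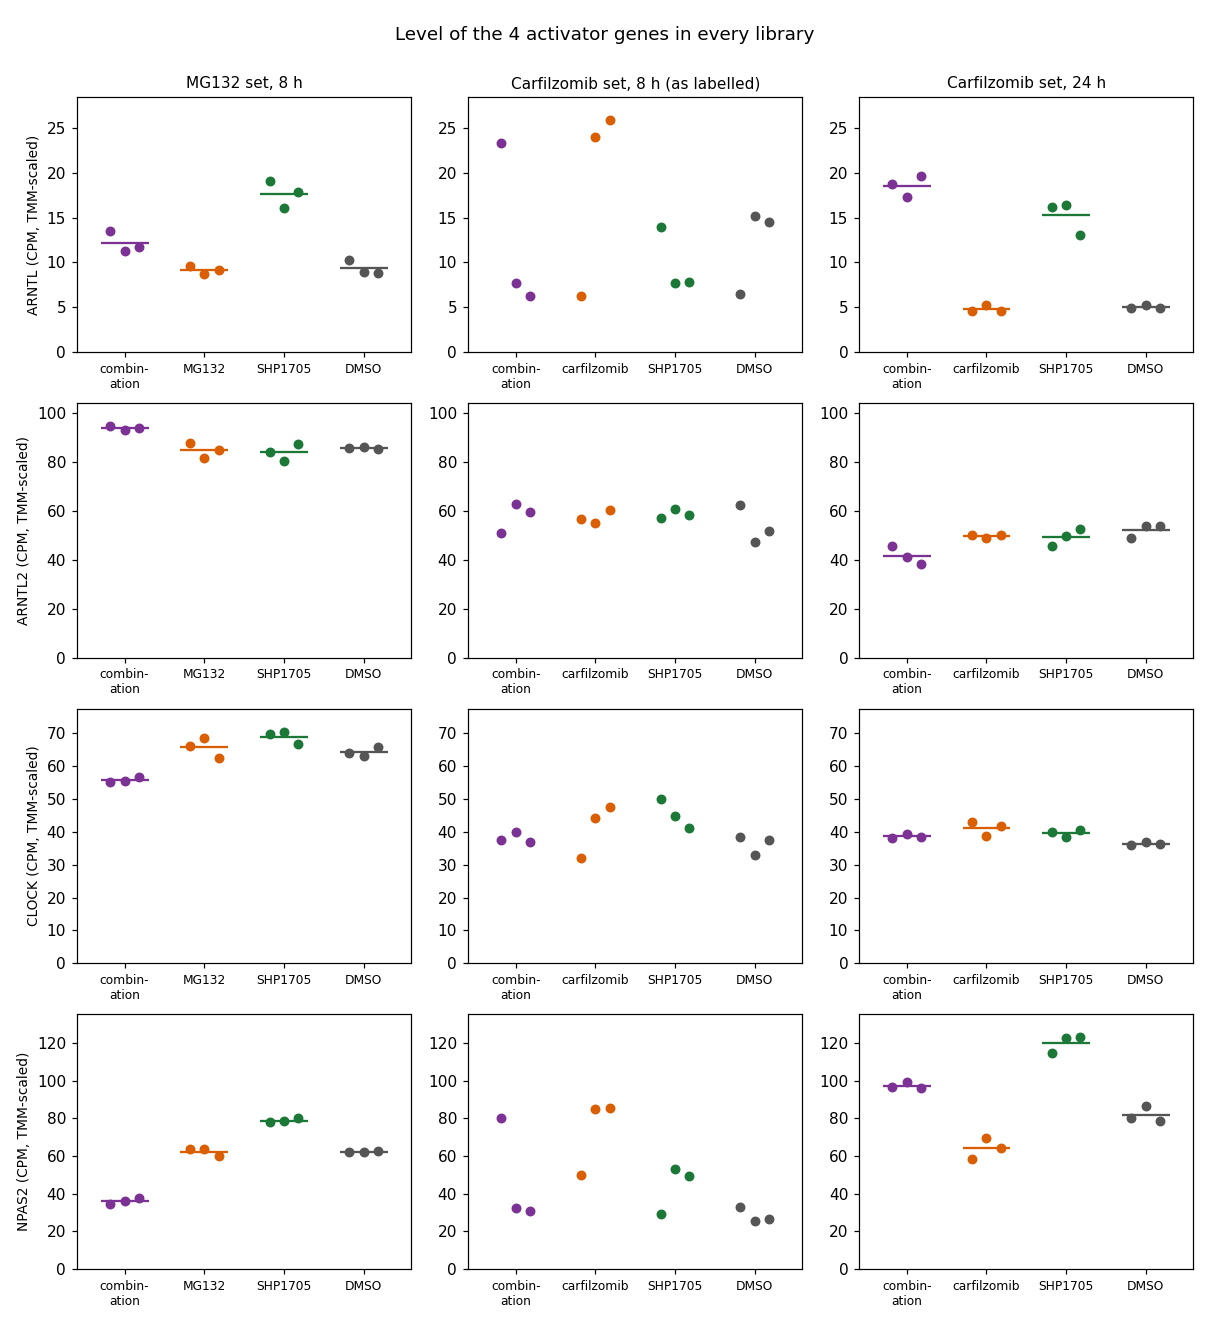
Level of each activator gene (rows) in every library of the 3 sets (columns), as TMM-scaled CPM on axes from 0. Points are libraries in order of replicate and lines are means of 3 libraries (none where the labels are in doubt). Within the carfilzomib set at 24 h, ARNTL and NPAS2 are higher in the groups with SHP1705 than in DMSO, and within the MG132 set NPAS2 is lowest in the combination.

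The first comparison asks what the cryptochrome stabilizer alone did to the genes of the activators that cryptochrome blocks. ARNTL and NPAS2 rose with SHP1705 in the MG132 set and in the carfilzomib set at 24 h, by 1.89-fold and 3.04-fold for ARNTL and by 1.27-fold and 1.47-fold for NPAS2. CLOCK and ARNTL2 did not pass the test in either set. These were 2 of 4 members called in the MG132 set, where 7.53% of the 16591 genes tested were called, and 2 of 4 in the carfilzomib set at 24 h, where 4.46% of 16183 genes were. A call is an adjusted p under 0.05 in edgeR's quasi-likelihood test.

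After 8 h in the MG132 set, ARNTL stood at 19.1, 16.0 and 17.9 CPM with SHP1705 and at 10.3, 8.95 and 8.85 CPM in DMSO. All libraries with SHP1705 lay above all DMSO libraries, at a log2 fold change of 0.92 ± 0.09 (SE, n = 3 each, adjusted p = 3.76e-06 by edgeR's quasi-likelihood test). In that set ARNTL was number 10 of all genes by p, and 2.45% of genes had a larger absolute log2 fold change. NPAS2, the partner that can stand in for CLOCK, stood at 78.0, 78.6 and 80.1 CPM with SHP1705 and at 62.1, 62.1 and 62.8 CPM in DMSO. The groups were apart with little spread within either, and the log2 fold change was 0.34 ± 0.04 (edgeR, adjusted p = 4.52e-05).

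CLOCK, the best known partner of BMAL1, stood at 69.9, 70.5 and 66.7 CPM with SHP1705 and at 64.0, 63.0 and 65.9 CPM in DMSO. Its SHP1705 libraries were all above DMSO, but the log2 fold change of 0.10 ± 0.04 missed the threshold (edgeR, adjusted p = 0.145), with a 95% interval of 0.02 to 0.19. ARNTL2, the gene of BMAL2, stood at 84.1, 80.4 and 87.2 CPM with SHP1705 and at 85.5, 85.9 and 85.1 CPM in DMSO. Those groups overlapped, and the log2 fold change of -0.03 had a 95% interval of -0.11 to 0.05 (edgeR, adjusted p = 0.752).

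In the 24 h libraries, ARNTL stood at 16.2, 16.5 and 13.1 CPM with SHP1705 and at 4.88, 5.20 and 4.92 CPM in DMSO. The groups were far apart, at a log2 fold change of 1.60 ± 0.12 (edgeR, adjusted p = 7.56e-09), number 11 of all genes by p, with 0.538% of genes changed more. NPAS2 stood at 115, 122.83 and 122.998 CPM with SHP1705 and at 80.5, 86.3 and 78.8 CPM in DMSO. It too was higher in every SHP1705 library, by a log2 fold change of 0.55 ± 0.06 (edgeR, adjusted p = 2.45e-06). CLOCK stood at 40.0, 38.6 and 40.5 CPM with SHP1705 and at 36.1, 37.0 and 36.2 CPM in DMSO. As at 8 h in the MG132 set its libraries were all a little above DMSO. The log2 fold change of 0.12 ± 0.06 was not called (edgeR, adjusted p = 0.353). For no contrast was the share of all genes with such separated groups counted, so separation alone is not read as a change. ARNTL2 stood at 45.6, 49.8 and 52.6 CPM with SHP1705 and at 48.9, 53.7 and 53.6 CPM in DMSO, groups that overlapped (log2 fold change -0.08 ± 0.07, edgeR adjusted p = 0.657).

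Whether the SHP1705 effect differed between sets was tested directly, with time, table and depth all differing between them. In 1 joint fit of 24 libraries, those of the MG132 set and of carfilzomib at 24 h, a fit added after the data were seen, the ARNTL effect was larger at 24 h by 0.68 ± 0.15 on the log2 scale (edgeR, adjusted p = 0.0129), and 1.2% of 17793 genes were called. ARNTL with SHP1705 was itself not higher at 24 h (13.1 to 16.5 CPM) than in the MG132 set (16.0 to 19.1 CPM). In DMSO it was lower at 24 h, at 4.88 to 5.20 CPM against 8.85 to 10.3 CPM. The larger log2 effect thus went with a lower DMSO level. Levels were scaled within each set, and the difference in DMSO levels was not tested. For NPAS2 the difference in effect between these sets was 0.21 and was not called (edgeR, adjusted p = 0.193). In the fit of all 36 libraries, which includes the doubtful set, the ARNTL difference was 0.69 ± 0.53 (edgeR, adjusted p = 1.00) and 0.023% of 17389 genes were called.

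**Figure D2:**
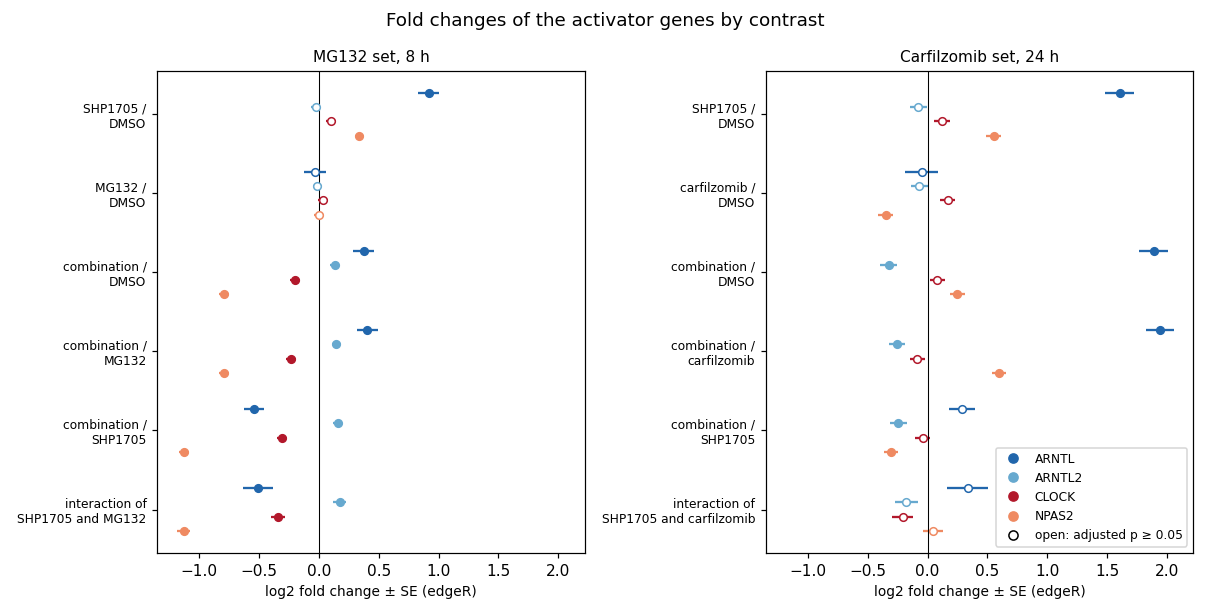
Log2 fold change ± SE (horizontal axis, edgeR) of each activator gene for 5 contrasts and the interaction, in the MG132 set and the carfilzomib set at 24 h, with 3 libraries a group. Filled points passed an adjusted p under 0.05. ARNTL lies at 1.60 to 1.94 in the 3 contrasts at 24 h that add SHP1705, and NPAS2 lies at -0.79 to -1.13 in the MG132 combination contrasts.

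The proteasome blockers alone were compared with DMSO next. With MG132 at 100 nM none of the 4 genes was called: their log2 fold changes lay between -0.03 and 0.03, 0 of 4 were called by edgeR or DESeq2, and 0 of 4 had an unadjusted p under 0.05. Of all genes 0% were called by edgeR, with 1574 at an unadjusted p under 0.05 and 75 called by DESeq2. Carfilzomib at 24 h lowered NPAS2, the 1 of 4 members called where 21.5% of genes were. NPAS2 stood at 58.4, 69.7 and 64.5 CPM with carfilzomib and at 80.5, 86.3 and 78.8 CPM in DMSO. Every carfilzomib library was below every DMSO library, at a log2 fold change of -0.35 ± 0.06 (edgeR, adjusted p = 2.39e-04). CLOCK stood at 43.0, 38.7 and 41.7 CPM with carfilzomib and at 36.1, 37.0 and 36.2 CPM in DMSO, which did not overlap, and its log2 fold change of 0.17 ± 0.06 missed the threshold (edgeR, adjusted p = 0.0579). Without carfilzomib replicate 2 it passed (0.21, adjusted p = 0.0232). ARNTL stood at 4.57, 5.22 and 4.62 CPM and ARNTL2 at 50.003, 48.9 and 50.1 CPM with carfilzomib. Both overlapped their DMSO libraries, with log2 fold changes of -0.05 and -0.07.

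The combination was set against each of the other groups, to see whether SHP1705 acted on the activator genes in the same way beside a proteasome blocker. In the MG132 set NPAS2 and CLOCK fell in the combination below all other groups, and ARNTL lay between SHP1705 and DMSO. In the carfilzomib set at 24 h ARNTL rose above carfilzomib and DMSO, NPAS2 lay between SHP1705 and DMSO, and ARNTL2 fell below the other groups. The difference between the 2 sets in these effects was not tested.

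In the MG132 set all 4 members were called in each combination contrast, where 58.8% of genes were called against DMSO, 57.2% against MG132 and 61% against SHP1705, so the count of 4 stands beside a background of most genes. The heat shock gene HSPA1A averaged 39749 ± 843 CPM in the combination and 716 ± 182, 647 ± 43.0 and 587 ± 46.1 CPM with MG132, SHP1705 and DMSO (SD, n = 3 each). NPAS2 stood at 34.5, 36.1 and 37.5 CPM in the combination, against 63.5, 63.8 and 59.9 CPM with MG132, 78.0, 78.6 and 80.1 CPM with SHP1705 and 62.1, 62.1 and 62.8 CPM in DMSO. It was below every library of the other groups, at a log2 fold change of -0.79 ± 0.04 against DMSO (edgeR, adjusted p = 3.23e-12) and -1.13 ± 0.04 against SHP1705 (edgeR, adjusted p = 1.22e-14). CLOCK stood at 55.2, 55.6 and 56.8 CPM in the combination and at 66.1, 68.7 and 62.6 CPM with MG132, with a log2 fold change of -0.20 ± 0.04 against DMSO (edgeR, adjusted p = 3.24e-04) and -0.31 against SHP1705. These groups too did not overlap.

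ARNTL stood at 13.5, 11.3 and 11.7 CPM in the combination and at 9.63, 8.70 and 9.16 CPM with MG132. The combination was above MG132 and DMSO and below SHP1705 in every library, with log2 fold changes of 0.40 ± 0.09 against MG132 (edgeR, adjusted p = 7.25e-04), 0.37 ± 0.09 against DMSO (adjusted p = 0.00146) and -0.54 ± 0.09 against SHP1705 (adjusted p = 1.63e-05). ARNTL2 stood at 94.5, 92.7 and 93.9 CPM in the combination and at 87.7, 81.5 and 84.7 CPM with MG132, a log2 fold change of 0.13 ± 0.04 against DMSO (edgeR, adjusted p = 0.00503). The rises of ARNTL2 and ARNTL in the combination depend on the scaling. With total-count scaling, an alternative added after the data were seen, the median gene of the combination moved by -0.31 against DMSO. ARNTL2 then had a log2 fold change of -0.17 against DMSO (adjusted p = 6.80e-04) and ARNTL one of 0.07 (adjusted p = 0.518), both above that median, while NPAS2 had -1.09 and CLOCK -0.51, both below it.

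The interaction of SHP1705 with MG132 asks whether the combination departed from the sum of the single effects on the log scale, and 48.9% of genes were called. All 4 members were, with terms of -1.13 ± 0.06 for NPAS2 (edgeR, adjusted p = 4.16e-12), -0.51 ± 0.12 for ARNTL (adjusted p = 0.00201), -0.34 ± 0.06 for CLOCK (adjusted p = 7.13e-05) and 0.17 ± 0.05 for ARNTL2 (adjusted p = 0.0108). The term of ARNTL2 was -0.16 with total-count scaling and lost its call without MG132 replicate 2 (adjusted p = 0.0506). In a fit without the 4 libraries outside the combination that held over 100 POSTN counts, 1 library with SHP1705 and 1 with MG132 remain, and these are assumed to vary like the other groups. On that assumption all 4 were called, with -1.15 for NPAS2, -0.56 for ARNTL, -0.43 for CLOCK and 0.22 for ARNTL2. The part of the POSTN RNA in the combination itself was not tested, since all 3 combination libraries hold it.

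In the carfilzomib set at 24 h HSPA1A averaged 1226 ± 75.1 CPM in the combination and 1110 ± 57.8 with carfilzomib, against 720 ± 12.6 with SHP1705 and 699 ± 14.4 in DMSO (SD, n = 3 each). POSTN was at most 0.0534 CPM in any library there. ARNTL stood at 18.7, 17.3 and 19.7 CPM in the combination, against 4.57, 5.22 and 4.62 CPM with carfilzomib, 16.2, 16.5 and 13.1 CPM with SHP1705 and 4.88, 5.20 and 4.92 CPM in DMSO. Its log2 fold change was 1.94 ± 0.12 against carfilzomib (edgeR, adjusted p = 1.26e-10) and 1.89 ± 0.12 against DMSO (adjusted p = 4.06e-11). Against SHP1705 every combination library was higher, but the log2 fold change of 0.29 ± 0.11 was not called (adjusted p = 0.0544). Members called were 3 of 4 against DMSO, 3 of 4 against carfilzomib and 2 of 4 against SHP1705, where 27.3%, 9.02% and 24.2% of genes were called.

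NPAS2 stood at 96.8, 99.2 and 96.0 CPM in that combination, above carfilzomib and DMSO and below SHP1705 in every library. The log2 fold changes were 0.60 ± 0.06 against carfilzomib (edgeR, adjusted p = 6.76e-07), 0.25 ± 0.06 against DMSO (adjusted p = 0.00330) and -0.30 ± 0.06 against SHP1705 (adjusted p = 5.13e-04). ARNTL2 stood at 45.5, 41.1 and 38.3 CPM in the combination, below every library of the other groups. The highest of these, 45.48 CPM, was close to the lowest library with SHP1705, at 45.63 CPM. ARNTL2 fell by 0.32 ± 0.07 on the log2 scale against DMSO (edgeR, adjusted p = 0.00133). Its fall was 0.25 ± 0.07 against carfilzomib (edgeR, adjusted p = 0.0241) and 0.25 ± 0.07 against SHP1705 (adjusted p = 0.0126). The fall against DMSO kept its call without any 1 library. The fall against carfilzomib lost it without carfilzomib replicate 1 (adjusted p = 0.0527), combination replicate 2 (0.0832) or combination replicate 3 (0.149), and the fall against SHP1705 lost it without SHP1705 replicate 3 (0.0770) or combination replicate 3 (0.0902). CLOCK stood at 38.1, 39.4 and 38.4 CPM in the combination and overlapped carfilzomib and SHP1705.

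No interaction with carfilzomib was called at 24 h among the members, by edgeR or by DESeq2, where 0.482% of genes were called, and 1 of the 4 had an unadjusted p under 0.05. The terms were 0.34 (95% interval -0.02 to 0.69) for ARNTL, -0.18 (-0.38 to 0.03) for ARNTL2, -0.21 (-0.39 to -0.03) for CLOCK and 0.05 (-0.13 to 0.22) for NPAS2. Only the interval of CLOCK, which is not adjusted over genes, leaves out 0.

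The balance within a paralogue pair was read inside each library, where scaling cancels. The ratio of ARNTL to ARNTL2 counts was 0.211 ± 0.0150 with SHP1705 and 0.110 ± 0.00941 in DMSO in the MG132 set (SD, n = 3 each), a 1.92-fold shift. At 24 h of the carfilzomib set it was 0.449 ± 0.0570 in the combination, 0.312 ± 0.0557 with SHP1705, 0.0968 ± 0.00870 with carfilzomib and 0.0961 ± 0.00407 in DMSO. The combination there was 4.65-fold above DMSO and 1.45-fold above SHP1705. The ratio of NPAS2 to CLOCK was 0.645 ± 0.0183 in the combination of the MG132 set, against 0.949 ± 0.0179 with MG132, 1.14 ± 0.0497 with SHP1705 and 0.970 ± 0.0167 in DMSO. At 24 h it was 2.52 ± 0.0215 in the combination, 1.57 ± 0.223 with carfilzomib, 3.03 ± 0.159 with SHP1705 and 2.24 ± 0.0788 in DMSO. Each of these shifts named against DMSO or SHP1705 had groups that did not overlap and an exact two-sided permutation p of 0.1, the smallest that 3 against 3 libraries can give.

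**Figure D3:**
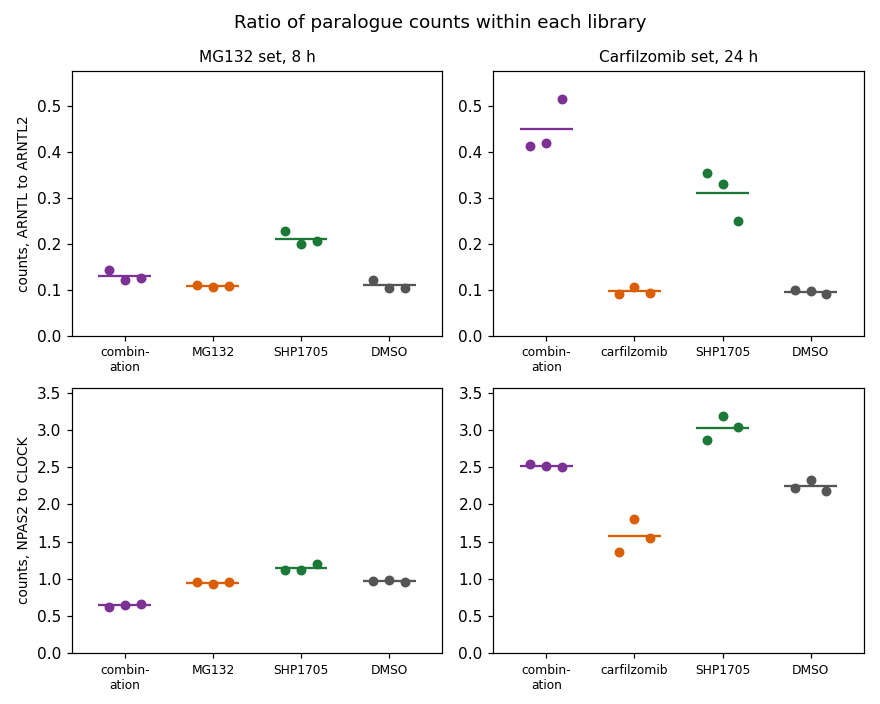
Ratio of counts within each library, ARNTL to ARNTL2 (upper row) and NPAS2 to CLOCK (lower row), on axes from 0, for the MG132 set and the carfilzomib set at 24 h. Points are libraries and lines are means of 3. ARNTL to ARNTL2 reaches 0.449 in the combination at 24 h, and NPAS2 to CLOCK is lowest, at 0.645, in the combination of the MG132 set.

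Compared between genes, per kb of joined exons in GENCODE 29, ARNTL had the lowest level in each group of the MG132 set and of the carfilzomib set at 24 h. With SHP1705 in the MG132 set NPAS2 (6.31 ± 0.0865 CPM per kb) stood above CLOCK (5.87 ± 0.175; SD, n = 3). In DMSO of that set ARNTL2 stood at 12.2 ± 0.0577, CLOCK at 5.47 ± 0.1254, NPAS2 at 4.99 ± 0.0300 and ARNTL at 1.39 ± 0.120 CPM per kb. In the combination at 24 h the order was NPAS2 at 7.79 ± 0.134, ARNTL2 at 5.96 ± 0.520, CLOCK at 3.28 ± 0.0588 and ARNTL at 2.76 ± 0.182 CPM per kb. In the 24 h DMSO libraries ARNTL2 came first at 7.46 ± 0.389, before NPAS2 at 6.55 ± 0.317, CLOCK at 3.10 ± 0.0429 and ARNTL at 0.743 ± 0.0266 CPM per kb, so the place of NPAS2 and ARNTL2 differed with treatment. Neighbours in these orders were apart by more than their SD. Lengths assume every exon is used, and the annotation of the counting is not given in the sources used here. Exons of NPAS2 overlap an antisense gene over 748 bases and those of CLOCK overlap TMEM165, on the other strand, over 76 bases. TMEM165 held 1842 to 4141 counts per library. Without a stated strand setting, how reads in the shared bases of CLOCK and of NPAS2 were counted is not known.

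The rest of the loop was read from lists of genes around the activators. Of the 11 genes of the repressors and negative arm, 8 fell and 0 rose with SHP1705 in the MG132 set (median log2 fold change -0.89, all genes 0.00), where 3.45% of all genes rose and 4.08% fell. At 24 h of the carfilzomib set 11 fell (median -1.79, all genes 0.00), where 1.95% of all genes rose and 2.51% fell. PER1, PER2, PER3 and CRY1 had log2 fold changes of -0.89, -2.35, -1.60 and -0.78 in the MG132 set and of -2.65, -5.18, -4.34 and -2.61 at 24 h. In the combination against DMSO, 8 of the 11 fell and 2 rose in the MG132 set (median -0.51), beside 29.7% of all genes that fell and 29.2% that rose. At 24 h 9 fell and 0 rose (median -1.35), beside 14.3% and 13.03% of all genes. The 2 that rose were CRY2, at 1.21 ± 0.10 (edgeR, adjusted p = 1.95e-09), and BHLHE40, at 0.42 ± 0.05 (adjusted p = 6.99e-07), an E-box repressor. CRY2 and BHLHE40 were named after their values were seen. They go against the list, of which 8 genes fell in the MG132 combination, as NPAS2 did. At 24 h CRY2 had -1.23 ± 0.14 in the combination (edgeR, adjusted p = 3.03e-07).

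Of the ROR receptors and output factors, 6 of 8 were tested in the MG132 set and 5 of 8 at 24 h. With SHP1705 1 rose and 2 fell in each set (medians 0.01 and 0.14), beside the shares of all genes given above for that treatment: NFIL3, a repressor under RORE control, rose by 0.45 and 0.70, and DBP (-1.59 and -3.30) and TEF (-2.76 and -3.56), activators under E-box control, fell. RORA, the activating receptor at ROREs, had 0.03 ± 0.30 in the MG132 set and 0.80 ± 0.51 at 24 h with SHP1705, neither called (edgeR, adjusted p = 0.971 and 0.486). In the MG132 combination against DMSO 2 of the 6 rose and 2 fell (median 0.10), beside 29.2% and 29.7% of all genes. Those that rose were RORA (0.86 ± 0.29, edgeR adjusted p = 0.0168) and NAMPT (0.90 ± 0.03, adjusted p = 1.99e-15). NAMPT makes the NAD precursor that feeds the deacetylase SIRT1. At 24 h 1 of the 5 rose and 2 fell in the combination (median -0.13), beside 13.03% and 14.3% of all genes.

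Among 15 genes of coactivators and modifiers of the activator, 1 rose with SHP1705 in the MG132 set, KMT2A, a histone methyltransferase (0.19 ± 0.05, edgeR adjusted p = 0.0283), and 1 of 14 tested fell at 24 h, STUB1, a ubiquitin ligase (-0.29 ± 0.06, adjusted p = 0.00735). Beside 3.45% of all genes that rose in the MG132 set and 2.51% that fell at 24 h, these counts of 1 are near the background. In the combination against DMSO, 10 rose and 3 fell in the MG132 set (median 0.25) while 29.2% of all genes rose and 29.7% fell. At 24 h 1 of 14 rose, USP9X (0.17 ± 0.05), and 1 fell, STUB1 (-0.41 ± 0.07), which is no more than the 13.03% and 14.3% of all genes. CREBBP, an acetyltransferase that works with the BMAL1 pair, had 0.39 ± 0.06 in the MG132 combination (adjusted p = 1.68e-05) and -0.03 ± 0.07 at 24 h. KAT2B, another acetyltransferase, had -0.78 ± 0.08 and -0.18 ± 0.10.

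The activators belong to the bHLH-PAS family, and 10 of 15 other family members and PAS coactivators were tested in each set. With SHP1705 4 rose and 0 fell in the MG132 set (median 0.19), beside 3.45% and 4.08% of all genes: AHR, the dioxin receptor (0.13 ± 0.04), HIF1A of the hypoxia response (0.24 ± 0.03), NCOA2 (0.34 ± 0.09) and NCOA3 (0.28 ± 0.05). None was called at 24 h by edgeR, where their log2 fold changes were 0.03, 0.07, 0.11 and 0.11. In the combination against DMSO 5 of the 10 rose and 4 fell in the MG132 set, beside 29.2% and 29.7% of all genes. At 24 h 1 rose and 2 fell, beside 13.03% and 14.3% of all genes. ARNT2, a partner subunit like the BMALs, was among those that fell in each set. Its fall was 0.92 ± 0.05 in the MG132 set (edgeR, adjusted p = 9.56e-12) and 0.39 ± 0.07 at 24 h (adjusted p = 9.36e-05). ARNT, the common partner of AHR and HIF1A, was not called in either (-0.09 and -0.03).

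In the carfilzomib set at 8 h the labels do not group libraries of like values, and no member is given a group mean. The library labelled combination 1 held 23.3 CPM of ARNTL and those labelled combination 2 and 3 held 7.65 and 6.29, with PER3 at 1.92, 7.69 and 8.20 CPM. Those labelled carfilzomib 1, 2 and 3 held 6.21, 24.0 and 25.9 CPM of ARNTL, with PER3 at 6.78, 1.26 and 1.69. Those labelled SHP1705 held 14.0, 7.71 and 7.84 CPM of ARNTL with PER3 at 2.25, 9.62 and 7.91, and those labelled DMSO held 6.42, 15.2 and 14.5 CPM with PER3 at 8.19, 2.06 and 1.55. In each label 1 library stands apart from the other two in both genes, and it is replicate 1.

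NPAS2 in the same set stood at 80.5, 32.3 and 31.0 CPM in the libraries labelled combination, at 49.7, 84.8 and 85.3 in those labelled carfilzomib, at 29.2, 53.0 and 49.5 in those labelled SHP1705, and at 32.8, 25.6 and 26.5 in those labelled DMSO. HSPA1A was at 892, 12019.5 and 15052 CPM in those labelled combination, at 792, 726 and 896 in those labelled carfilzomib, at 19856, 705 and 693 in those labelled SHP1705, and at 14559, 23605 and 23242 in those labelled DMSO. The 2 highest heat shock levels of the set thus carry the DMSO label. Over the set NPAS2 ran from 25.6 to 85.3 CPM and ARNTL from 6.21 to 25.9 CPM, against 47.2 to 62.5 CPM for ARNTL2 and 31.9 to 49.9 CPM for CLOCK. So, as in the other sets, ARNTL and NPAS2 were the wide pair and ARNTL2 and CLOCK the narrow one.

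With the groups as labelled, NPAS2 was the 1 of 4 members called for carfilzomib against DMSO, at 1.37 (edgeR, adjusted p = 0.0400), where 23% of genes were called. The call was lost in 5 of 6 fits that left out 1 of those libraries. In the other 5 contrasts of that set 0 of 4 members and 0% of all genes were called by edgeR, with 446 to 3951 genes at an unadjusted p under 0.05. DESeq2 called 0 of 4 members and 1 to 341 genes in them. The ARNTL effect of SHP1705 at 24 h minus that at 8 h, as labelled, was 1.95 ± 0.54 (edgeR, adjusted p = 0.0449, 2.94% of genes called). It kept its call without the library labelled SHP1705 1 or DMSO 1 at 8 h and lost it without any other single library of these groups. The difference of the 8 h carfilzomib set from the MG132 set was not called for ARNTL (-1.26, edgeR adjusted p = 0.196), with 0% of genes called, and passed without the library labelled SHP1705 1 (-1.58, adjusted p = 0.0227). These values rest on labels that PER3 goes against.

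**Figure D4:**
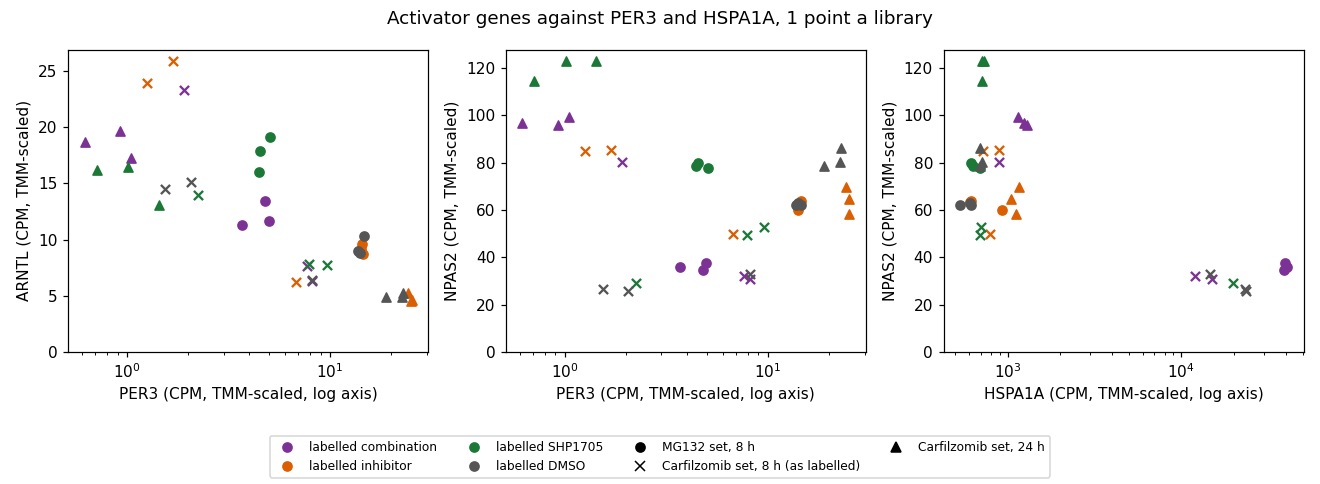
ARNTL against PER3, NPAS2 against PER3, and NPAS2 against HSPA1A, 1 point a library, in TMM-scaled CPM with a log horizontal axis. Colour is the label and the marker is the set. Crosses of 1 colour, the carfilzomib set at 8 h, lie in separate places, while circles and triangles of 1 colour lie together. The MG132 combination stands at 39749 CPM of HSPA1A and 36.03 CPM of NPAS2 on average.

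The genes whose pattern was most like each member were found over all 36 libraries, by Pearson's r of log2 CPM centred on each table's mean, among 10108 genes. These r values describe libraries that share treatments. For ARNTL the highest were ERRFI1 (0.87), a feedback inhibitor of the EGF receptor, NFIL3 (0.85), SEMA7A (0.82), RASD1 (0.80) and PIM1 (0.80), and among the lowest were NR1D2 (-0.94) and CLN6 (-0.89). NR1D2, a REV-ERB gene, was thus the lowest of all genes compared by Pearson's r. By rank correlation (Spearman's rho) it held place 10105 of 10108, counted from the highest. For NPAS2 HMGA2 (0.96), PLAU, ADAMTS15 and OTUB2 were among the highest, and the lowest were OSGIN1 (-0.97), CRY2 (-0.94) and EIF5A2 (-0.94). CLOCK was most like RALGPS2 (0.86), RAPH1, NECTIN3, BBX and PSD3, and least like RPL8 (-0.89), MYDGF and RPL14. ARNTL2 was most like E2F7 (0.75), SLC25A24, CS, VEGFC and SH2B3, and least like PIM1 (-0.76), VSIR and ARMCX6. Between members r over all libraries was 0.51 for ARNTL with NPAS2, with 0.23 within the MG132 set and 0.82 within the carfilzomib set at 24 h. For ARNTL with ARNTL2 it was -0.54, with 0.03 and -0.67 within those sets. For CLOCK with NPAS2 it was 0.41, with 0.96 and -0.21 within them, over 12 libraries each.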

How the data were processed

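Gene counts from 36 libraries of MDA-MB-231 RNA, made with polyA selection, were analysed. The authors deposited raw counts in 3 tables. Per the submitters' processing notes they used Trimmomatic, FastQC, HISAT2 and featureCounts on hg38. For versions, annotation and strand setting, the sources used here give nothing. Groups came from the sample labels.

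Each table was fitted alone, with 12 libraries in 4 groups. Genes were kept by filterByExpr, sizes scaled by TMM, and contrasts tested with edgeR 4.0.16 (R 4.3.3) by the quasi-likelihood F-test with Benjamini-Hochberg adjustment over all genes. Fold changes carry edgeR's default prior count, and the SE is the absolute log2 fold change over the root of F. Differences between sets came from a fit of 36 libraries. The number of columns left unused was 0. The method was tested on simulated data for SHP1705 against DMSO, with few genes changed. That does not cover the combination contrasts of the MG132 set, where most genes were called.

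Also tried were DESeq2 1.42.0, a fit with no filter, relative log expression factors, a replicate block, only the compared groups, and each library left out. Members and lists were chosen with earlier results of these data known. The 4 members were named in every contrast, listed genes in list order up to 4 a list, and alike genes as the 5 highest and 3 lowest r with at least 5 CPM, of which some are not reported here. CRY2, BHLHE40 and ARNT2 were named after their values were seen. Figures used matplotlib.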

Additional observations from a re-analysis of the deposited data

Results flagged for a closer look

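A pair of differences stood out, in which effects of SHP1705 on ARNTL differed between sets in a test of the difference itself. In the MG132 set and in the carfilzomib set at 24 h, 3 of 3 SHP1705 libraries held more ARNTL than every DMSO library. That does not measure the difference between sets. The effect was larger at 24 h in the carfilzomib set than at 8 h in the MG132 set. It was larger by 0.68 on the log2 scale in the fit of 24 libraries (edgeR, adjusted p = 0.0129). That fit was added after the data were seen, and in the fit of 36 libraries the difference was 0.69 and not called (edgeR, adjusted p = 1.00). The time of treatment and the set cannot be told apart in this difference. ARNTL in DMSO was lower at 24 h (4.88 to 5.20 CPM) than in the MG132 set (8.85 to 10.3 CPM). With SHP1705 it was not higher at 24 h (13.1 to 16.5 CPM) than in the MG132 set (16.0 to 19.1 CPM). The effect at 24 h exceeded that of the carfilzomib set at 8 h, as labelled, by 1.95 (edgeR, adjusted p = 0.0449). That call was lost with the replicate block (1.96, adjusted p = 0.121), with total-count scaling (1.78, adjusted p = 0.0557) and in most fits without 1 library. In that set the libraries labelled SHP1705 and DMSO each hold 1 library with PER3 unlike the other two of its label.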

How the results depend on the processing

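The counts of members called in the MG132 set were within 1.5 times under every alternative. In the carfilzomib set at 24 h, carfilzomib against DMSO called 2 of 4 with total-count scaling and 1 to 2 without 1 library, and the combination against SHP1705 1 to 2 without 1 library. For the carfilzomib set at 8 h as labelled, having no filter called 2 for carfilzomib and 1 each for SHP1705 and the combination against DMSO, the combination against carfilzomib and the interaction, and leaving out 1 library gave 0 to 1 for carfilzomib and for the interaction. For how far the ARNTL effect of SHP1705 differed between carfilzomib at 24 h and at 8 h, total-count scaling called 0 and leaving out 1 library 0 to 1, with adjusted p from 0.00223 to 0.168. For that between the sets at 8 h, having no filter called 1 and leaving out 1 library 0 to 1. For that between 24 h and the MG132 set, the 24-library fit called 1. The causes were not tested.

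Whether the replicate numbers pair the samples is not stated. Over all genes, correlations of same-numbered deviations had medians of 0.02, -0.08 and 0.01 in the MG132 set and the carfilzomib sets at 8 h and 24 h. They ran from -0.62 to 0.19 in the carfilzomib set at 8 h, where the labels are in doubt. Such medians cannot show that single genes are free of pairing. ARNTL was highest in replicate 1 in each group of the MG132 set. With the replicate block 0 were called for carfilzomib at 8 h and 0 for the ARNTL difference between 24 h and 8 h of carfilzomib, and no other call of a member changed.

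Signs changed only for values that were not called, and for ARNTL2 under total-count scaling in the MG132 set: -0.17 for the combination against DMSO, -0.17 against MG132, -0.16 against SHP1705 and -0.16 for the interaction. Without 1 library, MG132 against DMSO ran from -0.070 to 0.042 for ARNTL, -0.042 to 0.012 for ARNTL2, -4.0e-04 to 0.066 for CLOCK and -0.015 to 0.030 for NPAS2. ARNTL2 for SHP1705 in the MG132 set ran from -0.055 to 0.0039, the NPAS2 interaction at 24 h from -0.019 to 0.11, and the NPAS2 difference between 24 h and 8 h of carfilzomib from -0.30 to 0.071. With the 2 groups compared alone in the fit, ARNTL passed for the combination against SHP1705 at 24 h (adjusted p = 0.0374) and ARNTL2 missed against carfilzomib (0.0528). ARNTL, with 92 to 177 counts in DMSO and carfilzomib libraries at 24 h, is the least deeply counted member.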
